A study of Mus musculus with 47 samples.

Results

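Cholesterol is built in the liver from acetyl-CoA through mevalonate, isoprenoid diphosphates and squalene, and the ring structure formed from squalene is then trimmed and reduced to the finished sterol. Transcription of the pathway is driven by SREBP2, the product of Srebf2. SREBP2 is held in the endoplasmic reticulum by Scap and the Insig proteins while membrane sterol is plentiful and is released for processing when sterol falls, so that the enzyme genes of the pathway are known to move together. Cholesterol also enters the hepatocyte from lipoproteins and leaves the lysosome through Npc1 and Npc2, is moved between membranes by Stard4 and is esterified for storage by Soat2.

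The transcripts described here are those of 29 genes of sterol synthesis, sterol uptake and transport, and SREBP2 control, taken as a list and looked up by name on the array. A probe under the gene's name was found for 28 of the 29; Acat2, a thiolase that makes the acetoacetyl-CoA used at the start of the pathway, was not analysed here. Npc1l1, the intestinal sterol importer, was not well above background in any of 47 livers. The other 27 were well above background in all 47 livers and were tested: 18 synthesis enzymes (7 before squalene and 11 from squalene onward), 4 genes of SREBP2 control (Srebf2, Insig1, Insig2 and Scap) and 5 genes of uptake, transport and storage (Stard4, Soat2, Mylip, Npc1 and Npc2). They are 27 of 21737 genes tested on the array. The members were not chosen by their values in one comparison, but earlier results of these data were known when the list was drawn up.

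The livers came from 47 mice on a C57BL/6J background, 6 months old by the study's methods, with 1 array for each mouse. PXR, the receptor deleted in part of them, is a nuclear receptor of hepatocytes and gut that senses drugs and bacterial products. Pxr+/+ and Pxr-/- littermates, bred from Pxr+/- parents, were grouped by sex, genotype and treatment. For 2 weeks ATB mice drank tap water with vancomycin at 0.5 g/L and both ampicillin and neomycin at 1 g/L, and Cont mice drank tap water. All were killed at ZT6, that is 6 h after lights on. Each of the 8 groups had 6 mice, except male Pxr-/- Cont with 5. The deletion was constitutive and in every tissue. By the study's methods each group was kept in 2 cages, and the antibiotics were given in the drinking bottles. Which mice shared a cage was not given, so that cage could not be modelled and each p-value measures the spread between these mice only. All values below are normalised log2 signals of whole liver, in which fewer cells of a type and less RNA per cell cannot be told apart. A level was compared between groups only for the same probe.

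The 75th percentile of the median spot signal lay between 306 and 492.5 over the arrays, and 31067 to 34458 gene probes were well above background on each. Nr1i2, which encodes PXR, was measured by a probe whose position relative to the deleted part was not known and therefore checks nothing: its signal in Pxr-/- mice was 0.28 to 0.57 lower on the log2 scale in the 4 comparisons by genotype, and was not called in any. Cyp3a11, a classical PXR target, fell by 2.04 ± 0.17 (SE) with ATB in Pxr+/+ males (limma adjusted p = 1.13e-10) and gave -0.20 ± 0.18 in Pxr-/- males. With ATB it gave 0.02 ± 0.17 in Pxr+/+ females and 0.10 ± 0.17 in Pxr-/- females. By genotype Cyp3a11 was higher, not lower, in Pxr-/- mice. The difference was 2.40 ± 0.17 in ATB males (called, limma adjusted p = 3.14e-13). It was 0.56 in Cont males, 0.43 in Cont females and 0.51 in ATB females, without a call. Alb and the other hepatocyte markers were well above background in all livers. The 8 hepatocyte markers and 10 macrophage markers had no call in any of the 4 comparisons of ATB with Cont. The median log2 difference of the hepatocyte list was between -0.04 and 0.13 in these comparisons. In males the macrophage list had a median of -0.22 when PXR was present (its markers spanned -1.69 to -0.09) and of 0.48 when it was deleted (spanning 0.29 to 0.58). In females the corresponding medians were -0.61 (spanning -1.10 to -0.45) and -0.11 (spanning -0.34 to 0.13), and its part in the sterol values was not tested.

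The promoter windows of the members are shown first, because the enzyme genes among them are known for their common control. RefSeq windows (build GRCm38.p6, from 250 bases before to 50 bases after the start) were held for 23 of the 29 members. Motifs were searched on both strands: the sterol regulatory element core TCACNCCAC, the NF-Y box CCAAT and the GC box GGGCGG. The NF-Y box was found in a window of 21 of the 23 members, and in 15 of 16 enzymes, whereas 41.1% of 27025 genes (37.4% of 32851 windows) held it. The GC box was in 20 of the 23 members against 38.2% of all genes. The sterol core, which occurs in 1.44% of all genes, was in the window of 1 member, Hmgcs1, the synthase that commits acetyl-CoA units to mevalonate. No test was made of these shares, and a match is a string of letters, not a site. The bases directly before the start are printed for Hmgcs1 and for the 5 members called with ATB in Pxr+/+ males that have an NF-Y box in a window held here, each read 5′ to 3′ on the gene's own strand. Capitals mark the NF-Y box (ATTGG where it lies on the other strand) and, in Hmgcs1, the sterol core; no GC box overlapped either.
Hmgcs1 (chr13:119690171-119690350, + strand): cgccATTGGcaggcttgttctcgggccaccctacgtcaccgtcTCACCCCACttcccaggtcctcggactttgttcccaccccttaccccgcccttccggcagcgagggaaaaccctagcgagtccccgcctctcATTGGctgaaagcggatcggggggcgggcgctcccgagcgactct
Mvk (chr5:114444089-114444268, + strand): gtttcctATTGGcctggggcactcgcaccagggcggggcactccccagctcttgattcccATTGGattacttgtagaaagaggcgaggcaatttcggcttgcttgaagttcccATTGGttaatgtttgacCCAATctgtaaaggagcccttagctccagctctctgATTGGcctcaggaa
Idi1 (chr13:8885546-8885605, + strand): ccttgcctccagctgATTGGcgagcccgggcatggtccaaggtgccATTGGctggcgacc
Tm7sf2 (chr19:6067851-6067910, - strand): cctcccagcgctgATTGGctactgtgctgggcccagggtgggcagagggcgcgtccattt
Msmo1 (chr8:64733579-64733758, - strand): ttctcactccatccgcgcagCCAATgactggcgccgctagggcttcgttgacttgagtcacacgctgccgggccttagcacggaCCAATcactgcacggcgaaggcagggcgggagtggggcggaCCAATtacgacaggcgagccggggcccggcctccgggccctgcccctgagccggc
Nsdhl (chrX:72918401-72918520, + strand): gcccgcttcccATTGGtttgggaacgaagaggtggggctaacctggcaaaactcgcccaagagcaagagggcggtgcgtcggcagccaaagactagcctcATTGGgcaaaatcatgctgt
Within these stretches Mvk had 5 NF-Y boxes, Msmo1 had 3, Hmgcs1, Idi1 and Nsdhl had 2 each, and Tm7sf2 had 1.

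The comparison of ATB with Cont in male Pxr+/+ mice asked how the liver differs after antibiotics when PXR is present. Loss of gut bacteria and other effects of the antibiotics cannot be told apart in this design. In this comparison 8 of 27 members were called, all higher with ATB: 7 of 18 enzymes and Stard4. A member was called at a false discovery rate of 0.05 or less over all probes (limma, Benjamini-Hochberg) and a fold change above 1.2, and 1.04% of all genes tested were called by the same rule (0.879% higher). All 18 enzymes lay above 0, with a median log2 difference of 0.82, and the 9 other members had a median of 0.25, against 0.10 over all genes tested. At an unadjusted p below 0.05, 17 enzymes and 4 of the other 9 members were higher and none was lower, where 17.2% of all genes were higher. In 11 members, of which 10 were enzymes, every ATB mouse lay above every Cont mouse, a separation seen in 3.73% of all genes. The mean signal of the enzymes was 13.66 to 13.90 in the 6 ATB males and 12.41 to 13.43 in the 6 Cont males, so that the groups did not overlap.

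**Figure D1:**
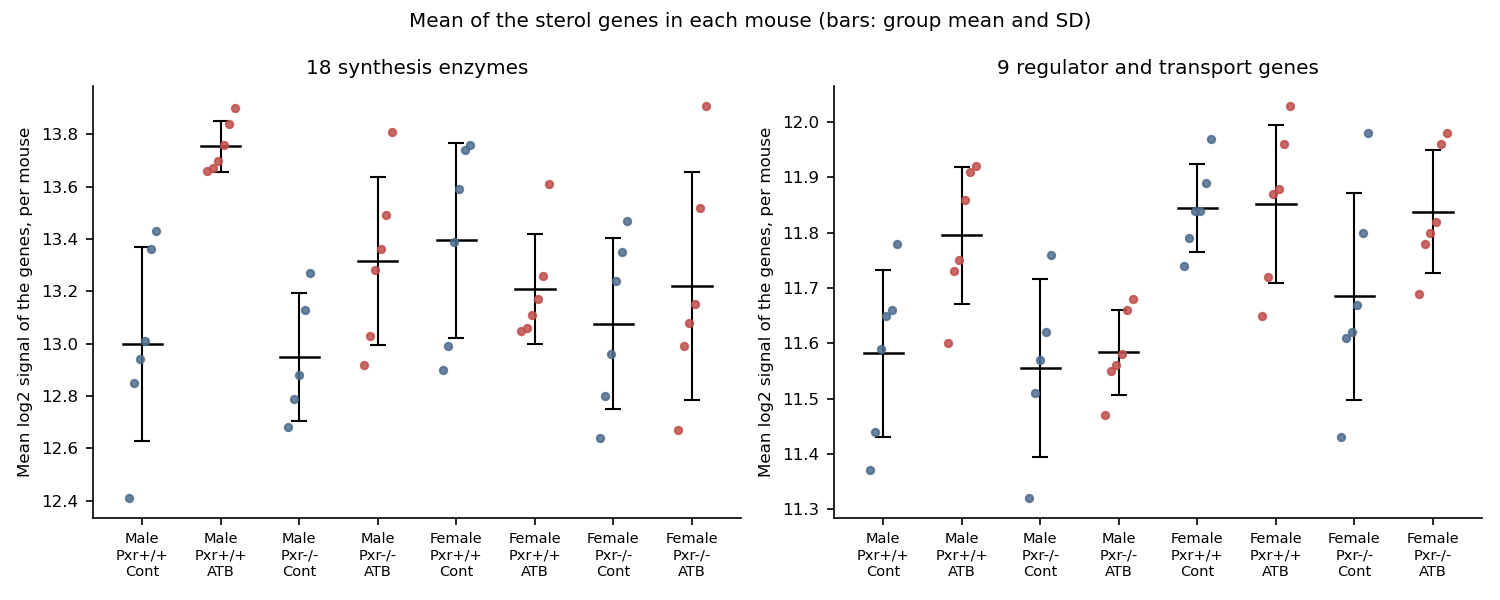
Mean normalised log2 signal of the 18 synthesis enzymes (left) and of the 9 regulator and transport genes (right) in each of the 47 mice, by group; points are mice, horizontal lines are group means and vertical bars are ± 1 SD. The 6 male Pxr+/+ ATB mice sit between 13.66 and 13.90 for the enzymes, above all 6 male Pxr+/+ Cont mice (12.41 to 13.43), and their SD of 0.10 is the smallest of the 8 groups.

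Among the enzymes before squalene, Mvk and Idi1 were called. Mvk, which phosphorylates mevalonate, gave 11.87, 12.48 and 12.94 (lowest, median and highest log2 signal) in Cont males and 13.30, 13.53 and 13.60 in ATB males. No ATB male reached down to the Cont range, and the difference was 0.99 ± 0.22 (SE, n = 6 mice per group, 1.99-fold, limma adjusted p = 0.015). Idi1, which interconverts the isoprenoid units, lay at 12.56, 13.30 and 13.88 in Cont males and at 14.49, 14.58 and 14.72 in ATB males. This was the largest difference of any member, 1.31 ± 0.25 (SE, 2.49-fold, adjusted p = 0.00434), and again no values overlapped. The probes lie on chromosome 5 (114910540 to 114910599) for Mvk and on chromosome 13 (8891524 to 8891583) for Idi1 in the mm9 build of the array files.

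The other enzymes of this stretch gave differences in the same direction that did not pass the test. Hmgcs1 was 0.85 ± 0.24 higher on the log2 scale (adjusted p = 0.0617), with 14.71, 15.22 and 15.85 in Cont males and 16.04, 16.10 and 16.31 in ATB males. Its groups did not overlap although the call was missed. Mvd, which decarboxylates mevalonate diphosphate, gave 1.03 ± 0.37 (adjusted p = 0.137), and its Cont males ranged widely, from 8.45 to 10.89. Fdps, which joins the isoprenoid units, gave 0.66 ± 0.21, and Pmvk, the kinase after Mvk, gave 0.46 ± 0.20. Ggps1, which makes the branch product geranylgeranyl diphosphate rather than sterol, gave 0.20 ± 0.14, the lowest value of the 18 enzymes.

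From squalene onward, 5 of 11 enzymes were called. Fdft1, the squalene synthase, lay at 12.42, 13.16 and 13.91 in Cont males and at 13.90, 14.09 and 14.45 in ATB males. The ranges touched, the highest Cont male passing the lowest ATB male by 0.01, and the difference was 0.86 ± 0.23 (SE, 1.82-fold, adjusted p = 0.0496). Sqle, the epoxidase that is a rate-controlling step of the pathway, gave 11.57, 12.90 and 13.48 in Cont males against 13.44, 13.93 and 14.13 in ATB males. Here too the ranges met at their edges, with a difference of 1.04 ± 0.27 (2.06-fold, adjusted p = 0.0473). The probe of Fdft1 lies on chromosome 14 (63765457 to 63765516, mm9) and that of Sqle on chromosome 15 (59162688 to 59162747).

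The 3 other called enzymes act on the ring and had no overlap between the groups. Tm7sf2, a sterol reductase of the ring, went from 14.24, 14.38 and 14.68 in Cont males to 14.94, 15.12 and 15.36 in ATB males, and it had the lowest adjusted p of the members (0.73 ± 0.11, 1.66-fold, adjusted p = 0.000176). Msmo1, which oxidises the ring methyl groups for their removal, went from 13.06, 13.97 and 14.38 to 14.93, 15.07 and 15.15 (1.13 ± 0.26, 2.19-fold, adjusted p = 0.0197). Its partner in the same removal, Nsdhl, went from 10.24, 10.87 and 11.30 to 11.56, 11.58 and 11.87 (0.80 ± 0.20, 1.74-fold, adjusted p = 0.0374). In Msmo1 and Nsdhl the ATB males were grouped more tightly than the Cont males, while in Tm7sf2 the 2 ranges were about equally wide. The probes of Tm7sf2, Msmo1 and Nsdhl lie on chromosome 19 (6062882 to 6062941), chromosome 8 (67196982 to 67197041) and chromosome X (70203236 to 70203295) of mm9.

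The 6 uncalled enzymes of this stretch all had an unadjusted p below 0.05. Cyp51, which removes a methyl group from lanosterol, and Hsd17b7, the ketoreductase of the methyl removal, lay just past the threshold, at 0.85 ± 0.23 (adjusted p = 0.0511) and 0.67 ± 0.18 (adjusted p = 0.0501). Lss, which closes the ring, gave 0.88 ± 0.27 (adjusted p = 0.0895). Neither these 3 nor Ebp had groups that overlapped. Dhcr7, which makes the last reduction to cholesterol, gave 0.60 ± 0.20, Sc5d, a desaturase, gave 0.31 ± 0.15, and Ebp, the isomerase, gave 0.25 ± 0.08 (15.94 to 16.18 in Cont males and 16.22 to 16.40 in ATB males).

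**Figure D2:**
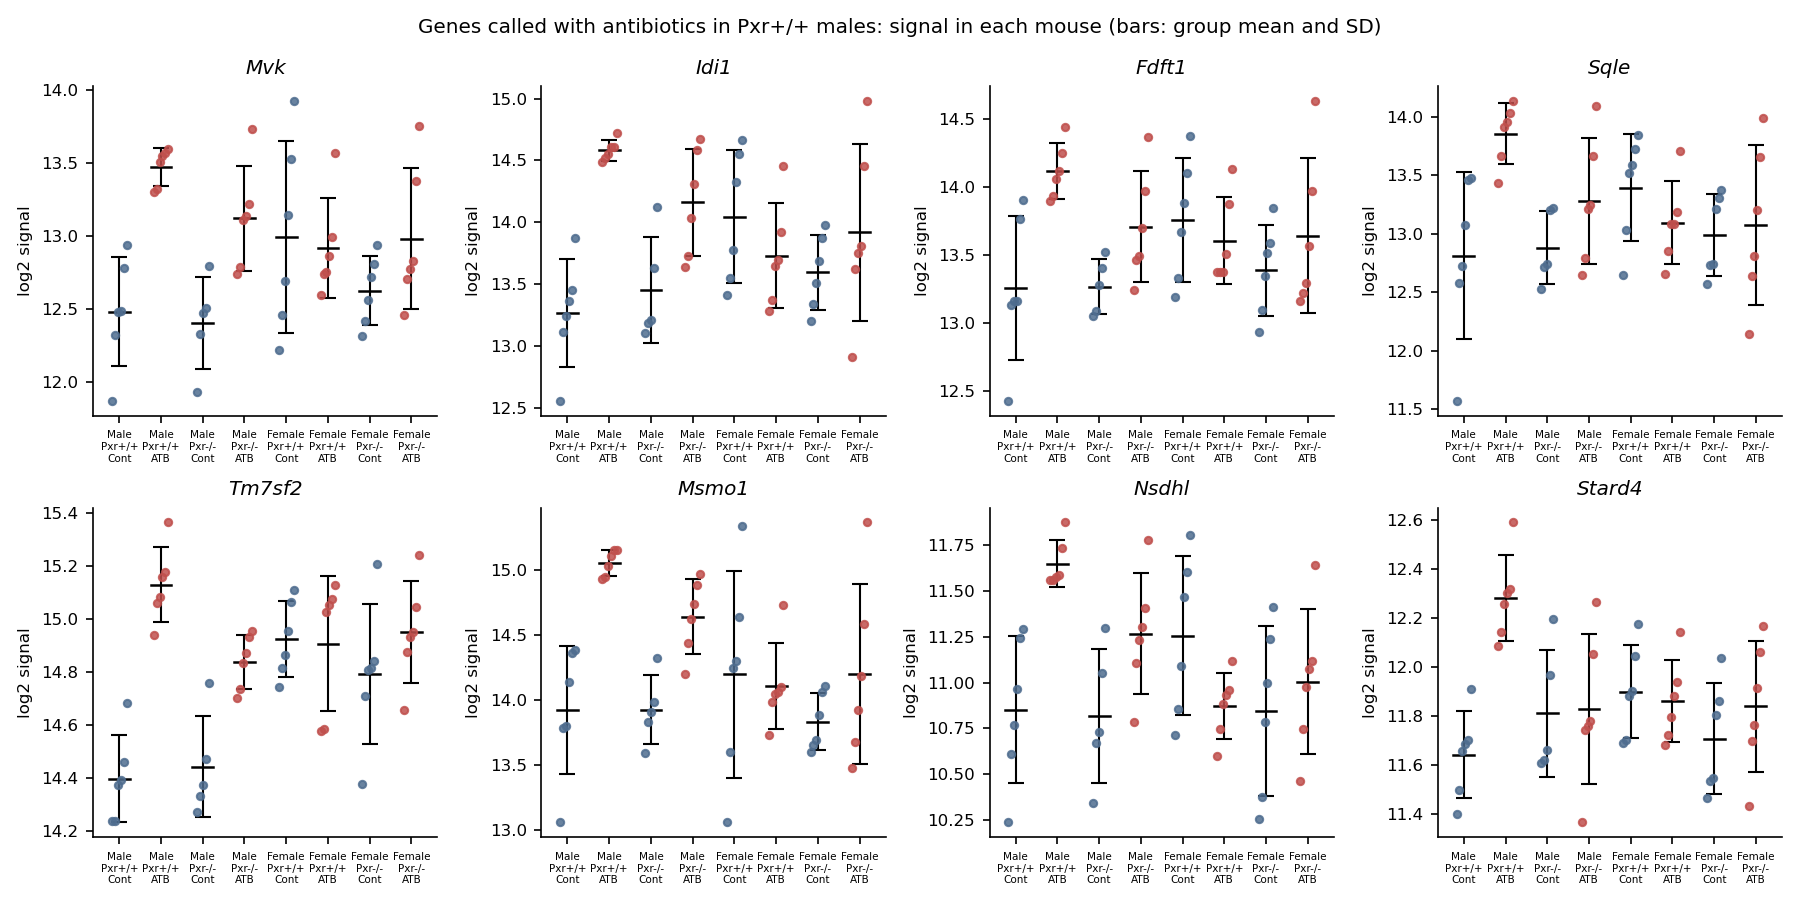
Normalised log2 signal in each of the 47 mice for the 8 members called in the comparison of ATB with Cont in male Pxr+/+ mice; points are mice (blue Cont, red ATB), horizontal lines are group means and vertical bars are ± 1 SD. The vertical scale differs between genes. In Idi1 the male Pxr+/+ ATB mice lie within 14.49 to 14.72, above all male Pxr+/+ Cont mice, while the mice of the other groups spread over wider ranges.

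The regulators moved less. Srebf2 gave 10.00, 10.25 and 10.47 in Cont males and 10.45, 10.52 and 10.66 in ATB males, a difference of 0.27 ± 0.10 that was not called (adjusted p = 0.157). A dimmer probe of Srebf2 gave 0.71 ± 0.15 (adjusted p = 0.0112) and passed, so that the size of the Srebf2 difference depended on the probe. Scap, the escort of SREBP2, gave 0.29 ± 0.10 and Insig1, itself a known SREBP target, gave 0.25 ± 0.18. Insig2, the other retention protein, was the lowest of the members, at -0.22 ± 0.19 (95% interval -0.60 to 0.17).

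Of the transport genes only Stard4 was called. Stard4, a sterol carrier between membranes whose gene is a known SREBP2 target, lay at 11.40, 11.67 and 11.91 in Cont males and at 12.08, 12.28 and 12.59 in ATB males, with no overlap (0.64 ± 0.13, 1.56-fold, adjusted p = 0.00741). Its dimmer probe gave 0.22 (adjusted p = 0.293). Npc2, Mylip (the ubiquitin ligase that degrades lipoprotein receptors) and Npc1 gave 0.26 ± 0.13, 0.24 ± 0.19 and 0.22 ± 0.16, and Soat2 gave -0.03 ± 0.13 (95% interval -0.30 to 0.24).

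Of the 18 members with several tested probes, 18 had the same sign in every probe in this comparison, and 12 of the 27 were called by at least 1 probe, where 1.33% of 21741 genes were. Among 27 further genes of sterol handling that are not members (proteases and ubiquitin ligases of the SREBP system, other carriers and exporters, liver X receptors and NF-Y subunits), 2 were called, both higher: Tmem97, a sterol-responsive membrane protein that binds Npc1 (0.63 ± 0.13, adjusted p = 0.0055), and Scarb1, the receptor for high-density lipoprotein (0.54 ± 0.14, adjusted p = 0.0454). The median of the 27 was 0.14.

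The call in Pxr+/+ males rested in part on single mice. The Cont male of replicate 3 had the lowest enzyme mean of all 47 mice, 12.41, and without it 3 of 27 members were called. Without 1 of Cont replicates 1, 2 and 6 or ATB replicates 1, 2, 3, 5 and 6 the count was 5, and without Cont replicate 5 it was 12. Idi1, Tm7sf2 and Stard4 were called in all 12 fits that left out 1 mouse of these groups. Mvk and Msmo1 were called in 11 of these fits, Nsdhl in 3, and Fdft1 and Sqle in 2 each. Within wash batch 1 (3 mice per group) the 8 called members differed by 0.80 to 1.58, and within wash batch 2 (2 mice per group) by 0.29 to 0.88, all above 0, with no member passing the adjusted threshold within a batch.

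In Pxr-/- males ATB gave no call by limma (0 of 27, where 0.110% of all genes were called), and 7 enzymes were higher and Soat2 was lower at an unadjusted p below 0.05 (4.38% and 2.81% of all genes). The 3 largest differences were in Mvk, Idi1 and Msmo1, each 0.71 on the log2 scale (SE 0.23, 0.27 and 0.27). Mvk gave 11.93, 12.33, 12.47, 12.51 and 12.79 in the 5 Cont males and 12.74, 13.12 and 13.73 (lowest, median and highest) in the 6 ATB males. Idi1 gave 13.10, 13.19, 13.21, 13.63 and 14.12 against 13.64, 14.17 and 14.67, and Msmo1 gave 13.59, 13.83, 13.91, 13.99 and 14.32 against 14.20, 14.68 and 14.97. In all 3 the highest Cont male lay above the lowest ATB male. The enzymes had a median of 0.40 and the other 9 members one of 0.06, against 0.02 over all genes, and 16 of 18 enzymes were above 0. Soat2, at -0.35 ± 0.14, was the lowest.

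The difference between the ATB effects of Pxr-/- and Pxr+/+ males was itself tested, and 0 of 27 members passed by limma (0.0184% of all genes called). Its median was -0.41 for the enzymes and -0.17 for the other members, against -0.08 over all genes, and 18 of 18 enzymes lay below 0. At an unadjusted p below 0.05, 2 members were lower, Stard4 (-0.62 ± 0.19) and Tm7sf2 (-0.33 ± 0.16), where 4.35% of all genes were. The 95% intervals of Lss (-1.51 to 0.10), Sqle (-1.44 to 0.15) and Idi1 (-1.35 to 0.13) all included 0 and were wide, so that neither a smaller nor an equal response in Pxr-/- males was shown. The median of this difference over all 27 members was -0.32, and it was -0.20 with quantile normalization and -0.19 with the processed signal less its 75th percentile or with normexp background correction, with 1 or 2 enzymes above 0 in these fits.

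**Figure D3:**
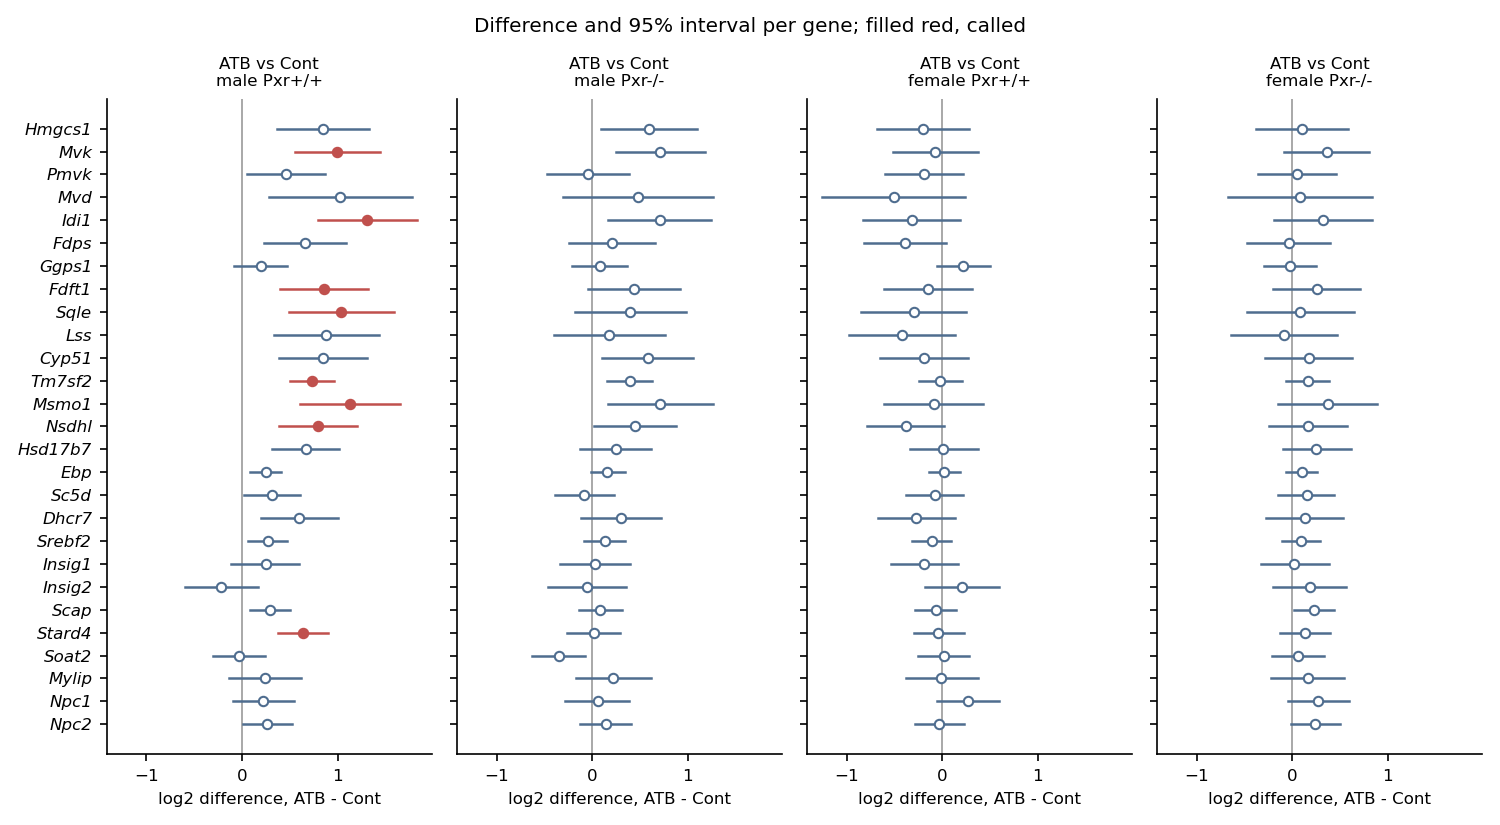
Log2 difference of ATB minus Cont for the 27 tested members in each of the 4 comparisons; points are estimates, lines are 95% intervals, and filled red points were called. All 18 enzymes (Hmgcs1 to Dhcr7) lie to the right of 0 in male Pxr+/+ mice, with Idi1 at 1.31, and no member was called in the other 3 panels.

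In females ATB gave no call in either genotype. In Pxr+/+ females (0 of 27 by limma, 0.0138% of all genes called) 0 members had an unadjusted p below 0.05 (10.7% of all genes), 15 of 18 enzymes lay below 0, and the median was -0.19 for the enzymes and -0.06 over all genes. The median over all 27 members, -0.09, was -0.01 with the processed signal. The largest differences were in Mvd (-0.51 ± 0.37), Lss (-0.42 ± 0.27) and Fdps (-0.39 ± 0.21). Mvd gave 9.26, 10.76 and 11.44 in Cont and 9.37, 10.10 and 11.03 in ATB females, Lss gave 11.28, 12.17 and 12.48 against 11.38, 11.58 and 12.06, and Fdps gave 14.84, 15.57 and 15.73 against 14.85, 14.98 and 15.24. The lowest mice of both groups lay close together in these 3 genes, and the Cont females reached higher.

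In Pxr-/- females 0 of 27 members were called by limma (0.152% of all genes), with 1 member at an unadjusted p below 0.05, Scap (0.23 ± 0.10), where 9.95% of all genes were higher. The enzymes had a median of 0.14, against 0.05 over all genes. The largest differences were in Msmo1 (0.37 ± 0.26), Mvk (0.36 ± 0.22) and Idi1 (0.32 ± 0.25). Msmo1 gave 13.60, 13.79 and 14.11 in Cont and 13.47, 14.05 and 15.36 in ATB females, Mvk gave 12.32, 12.64 and 12.94 against 12.46, 12.80 and 13.75, and Idi1 gave 13.21, 13.60 and 13.98 against 12.91, 13.78 and 14.98. In these 3 genes the ATB females spread far more widely than the Cont females, and their enzyme means ran from 12.67 to 13.91. The difference between the ATB effects of Pxr-/- and Pxr+/+ females gave 0 calls by limma (0% of all genes), with Scap alone at an unadjusted p below 0.05 (0.30 ± 0.15, with 8.36% of all genes higher). It was largest in Idi1 (0.64 ± 0.36), Mvd (0.59 ± 0.53) and Nsdhl (0.54 ± 0.28).

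The ATB effect in Pxr+/+ males minus that in Pxr+/+ females had a median of 1.04 for the enzymes, 0.29 for the other members and 0.16 over all genes. No member passed the adjusted test by limma (0 of 27, 0.0414% of all genes called), whereas 18 members, 15 of them enzymes, were higher at an unadjusted p below 0.05 and 0 were lower (12.6% of all genes were higher). Idi1 gave 1.63 ± 0.36 (95% interval 0.91 to 2.35, adjusted p = 0.108), Mvd gave 1.55 ± 0.53 (0.49 to 2.61) and Sqle gave 1.34 ± 0.39 (0.56 to 2.12). The lowest adjusted p was that of Tm7sf2, 0.0681 for 0.75 ± 0.16. These values share their male and female groups with the comparisons by treatment and are not further evidence for them.

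Comparison of the genotypes within a treatment asked what PXR deletion does to the same genes. By limma 0 of 27 members were called in each of the 4 comparisons, in which 0.189% (male Cont), 3.20% (female Cont), 0.925% (male ATB) and 0.207% (female ATB) of all genes were. In Cont males 1 member had an unadjusted p below 0.05, Ebp (-0.18 ± 0.09, with 3.87% of all genes lower), and the enzyme median of -0.05 was close to that of all genes, -0.04. The largest differences there were in Ggps1 (-0.19 ± 0.14), Idi1 (0.18 ± 0.27) and Ebp. Ggps1 gave 9.88, 10.23 and 10.63 in Pxr+/+ and 9.54, 10.05, 10.14, 10.17 and 10.21 in Pxr-/- Cont males, and the ranges overlapped.

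In ATB males 26 of 27 members had a negative difference (Pxr-/- minus Pxr+/+) without a call, and 13 of them, 9 enzymes included, had an unadjusted p below 0.05 (21.7% of all genes were lower by that measure). The whole array was shifted here as well: the median of all genes was -0.13, against -0.41 for the enzymes, and 2 members lay above the median of all genes. Over all 27 members the median was -0.38, and it was -0.22 with quantile normalization and -0.20 with the processed signal. The largest differences were in Lss (-0.73 ± 0.27, adjusted p = 0.132), Pmvk (-0.61 ± 0.20, adjusted p = 0.102) and Sqle (-0.58 ± 0.27, adjusted p = 0.198). Lss gave 12.28, 12.46 and 13.01 in Pxr+/+ ATB males and 11.23, 11.84 and 12.44 in Pxr-/- ATB males, Pmvk gave 14.33, 14.52 and 14.75 against 13.35, 13.88 and 14.39, and Sqle gave 13.44, 13.93 and 14.13 against 12.65, 13.23 and 14.09. The Pxr-/- males lay mostly lower but crossed into the Pxr+/+ range in each. In Hsd17b7, Ebp and Sc5d every Pxr-/- mouse lay below every Pxr+/+ mouse, a separation found in 3.07% of all genes. Without Pxr-/- replicate 5, 2 members were called.

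In Cont females the members were also lower in Pxr-/- mice without a call, 25 of 27 below 0, with 4 at an unadjusted p below 0.05 (Scap, Npc2, Ebp and Nsdhl), where 20.2% of all genes were. The enzyme median was -0.36, against -0.12 over all genes. Over all 27 members the median was -0.32, and it was -0.20 with quantile normalization and -0.17 with the processed signal. The largest differences were in Mvd (-0.60 ± 0.37), Idi1 (-0.45 ± 0.25) and Nsdhl (-0.41 ± 0.20). Mvd gave 9.26, 10.76 and 11.44 in Pxr+/+ and 9.44, 9.86 and 10.68 in Pxr-/- Cont females, Idi1 gave 13.41, 14.05 and 14.66 against 13.21, 13.60 and 13.98, and Nsdhl gave 10.72, 11.28 and 11.81 against 10.25, 10.89 and 11.41. The ranges overlapped in all 3. Without Pxr-/- replicate 3, 2 members were called. In the same comparison 6 of 10 macrophage markers were called, all lower in Pxr-/- females, with a list median of -0.95 and markers from -1.11 to -0.76. Averaged over the 10 markers, the signal of Cont females ran from 10.76 to 11.72 with PXR and from 9.79 to 10.44 without it, and none of the markers was at background. Of 6 sinusoidal endothelial markers 3 were also called lower (median -0.40). Of the 27 further sterol genes 2 were called, both lower: Abcg1, a sterol exporter (-0.71 ± 0.16, adjusted p = 0.0126), and Soat1, a cholesterol acyltransferase also of macrophages (-0.45 ± 0.12, adjusted p = 0.0339). These 2 are named for being the only calls of their list here, after their values were seen. The part of the cell markers in the sterol values was not tested. In ATB females 0 members had an unadjusted p below 0.05 (5.21% of all genes), the medians of members and of all genes were both 0.00, and the largest differences were in Ggps1 (-0.26 ± 0.14), Idi1 (0.19 ± 0.25) and Insig2 (0.17 ± 0.19). The PXR effect in Cont males minus that in Cont females gave 0 calls by limma (0.0230% of all genes) and 0 members at an unadjusted p below 0.05 (4.47% of all genes), with Mvd at 0.63 ± 0.54 and Idi1 at 0.63 ± 0.37.

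The sexes were compared within each genotype and treatment. In Pxr+/+ Cont mice 5 of 27 members were called, all lower in males, where 32.1% of all genes were called, 6511 of 6984 of them lower in males, so that the members' share was below that of the array. The whole array was shifted: the median of all genes was -0.20, against -0.28 for the members, of which 1 lay above 0. With quantile normalization the members' median was -0.10, and with the processed signal it was -0.03, with 12 of 27 members above 0. Idi1 was lower in males by 0.78 ± 0.25 (adjusted p = 0.0164), with 13.41, 14.05 and 14.66 in females and 12.56, 13.30 and 13.88 in males. Npc2, the soluble lysosomal sterol carrier, was lower by 0.71 ± 0.13 (adjusted p = 3.55e-05), with 11.83, 12.05 and 12.23 in females and 11.06, 11.30 and 11.51 in males. Mvd, the third by size, was not called (-0.62 ± 0.37). Npc2 did not overlap between the sexes, and Idi1 did. In 3 of 27 members every male lay below every female, a separation found in 15.9% of all genes. Tm7sf2 (-0.53 ± 0.11), Srebf2 (-0.46 ± 0.10) and Ebp (-0.26 ± 0.08) were the other calls, and with quantile normalization, which sets the median of all genes to 0.01, Idi1, Srebf2 and Ebp were no longer called. Insig2 was 0.43 ± 0.19 higher in males (adjusted p = 0.0747) and passed the test with quantile normalization (0.63, adjusted p = 0.0173). Without Cont female replicate 1 or Cont male replicate 5 the count of calls was 9, and without Cont male replicate 4 it was 8.

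In Pxr-/- Cont mice 4 of 27 members were called, all lower in males (16.1% of all genes called, 13.6% lower): Npc2 (-0.40 ± 0.13), Tm7sf2 (-0.35 ± 0.12), Srebf2 (-0.32 ± 0.11) and Ebp (-0.27 ± 0.09). Npc2 gave 11.32, 11.71 and 12.08 in females and 11.07, 11.09, 11.13, 11.54 and 11.67 in males. Tm7sf2 gave 14.38, 14.81 and 15.21 against 14.28, 14.33, 14.37, 14.47 and 14.76, and Srebf2 gave 10.40, 10.56 and 10.71 against 10.14, 10.17, 10.24, 10.31 and 10.35. Srebf2 alone of the 3 did not overlap between the sexes. In 1 of 27 members every male lay below every female, a separation found in 5.72% of all genes. None of the 4 was called with quantile normalization, or without Cont female replicate 3 or 4 or Cont male replicate 5, and 1 was called without Cont female replicate 6 or Cont male replicate 3 or 6.

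In Pxr+/+ ATB mice most of the called members were higher in males. Of 27 members 7 were higher in males and Npc2 was lower, where 12.5% of all genes were called 3.43% higher and 9.04% lower. The 7 were 6 enzymes and Stard4, and the enzyme median was 0.59, against -0.04 over all genes. Msmo1 gave 13.73, 14.05 and 14.73 in females and 14.93, 15.07 and 15.15 in males (0.94 ± 0.26, adjusted p = 0.0108), and Lss gave 11.38, 11.58 and 12.06 against 12.28, 12.46 and 13.01 (0.91 ± 0.27, adjusted p = 0.0222). Mvd, at 0.93 ± 0.37, was not called (adjusted p = 0.103) and gave 9.37, 10.10 and 11.03 in females and 10.51, 11.05 and 11.42 in males. The sexes did not overlap in Msmo1 and Lss and did in Mvd. The other calls were Idi1 (0.85 ± 0.25), Fdps (0.82 ± 0.21), Nsdhl (0.77 ± 0.20), Dhcr7 (0.59 ± 0.20) and Stard4 (0.42 ± 0.13). In 6 members every male lay above every female, a separation in that direction found in 2.21% of all genes. Without the ATB female of replicate 6, 3 members were called. Whether the difference between the sexes itself depended on ATB is the same quantity as the difference of the ATB effects between Pxr+/+ males and females given above, for which 0 of 27 members passed.

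**Figure D4:**
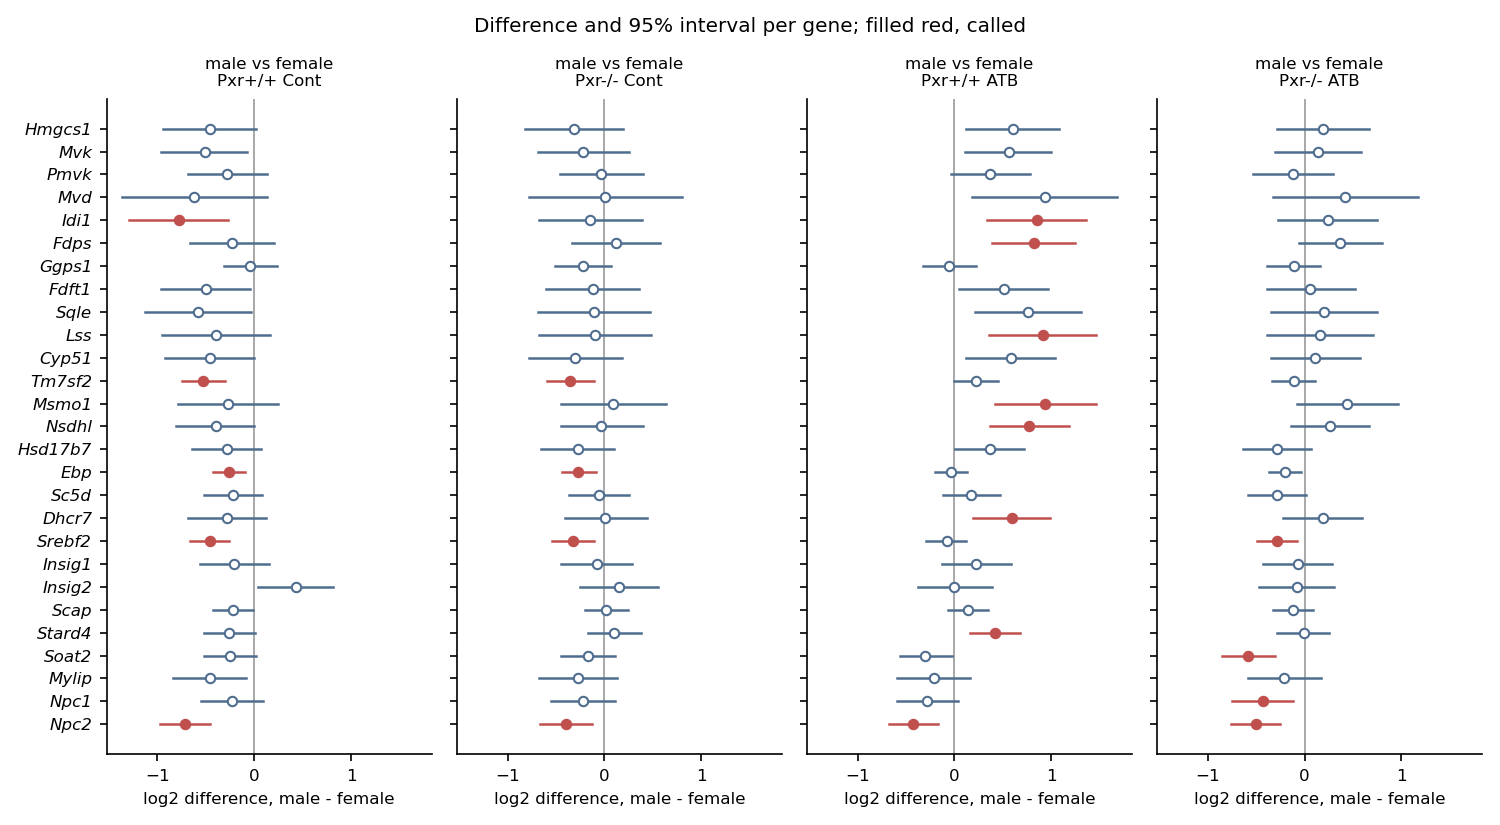
Log2 difference of male minus female for the 27 tested members in each of the 4 combinations of genotype and treatment; points are estimates, lines are 95% intervals, and filled red points were called. In Pxr+/+ mice Idi1 is at -0.78 without antibiotics and at 0.85 with them, while Npc2 lies left of 0 in all 4 panels (-0.71, -0.40, -0.43 and -0.50).

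In Pxr-/- ATB mice the 4 calls were of regulators and transport genes and were all lower in males (25.8% of all genes called, 23.3% lower): Soat2, Npc2, Npc1 and Srebf2. Soat2, which esterifies cholesterol for storage and for lipoproteins, gave 11.96, 12.36 and 12.66 in females and 11.53, 11.81 and 11.94 in males, without overlap (-0.58 ± 0.13, adjusted p = 0.00119). Npc2 gave 11.78, 11.92 and 12.18 in females and 11.16, 11.54 and 11.58 in males, again without overlap (-0.50 ± 0.13, adjusted p = 0.00307). In 2 of 27 members every male lay below every female, a separation found in 8.87% of all genes. Msmo1, the third by size, was not called (0.44 ± 0.26). Npc1 and Srebf2 gave -0.43 ± 0.16 and -0.28 ± 0.10. The enzymes had a median of 0.15 where all genes had -0.17, and none was called. With quantile normalization Soat2 and Npc2 kept their calls and Npc1 and Srebf2 lost theirs, and without ATB male replicate 2 the count was 2.

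Npc2 was called lower in males in all 4 comparisons by sex. Among Pxr-/- Cont mice this call was lost in 9 of 11 alternative fits. Quantile normalization, the processed signal, normexp and the authors' values were among these. In the same comparison it was kept in 5 of 11 fits that left out 1 mouse. Macrophages and other non-parenchymal cells also carry the Npc2 transcript, and markers of several cell types were called lower in males. The whole array was shifted the same way. Of 21737 genes, 6511 were called lower in males among Pxr+/+ Cont mice. The share was 13.6% among Pxr-/- Cont, 9.04% among Pxr+/+ ATB and 23.3% among Pxr-/- ATB mice. The medians of all genes were -0.20, -0.13, -0.04 and -0.17 in that order. Among Pxr+/+ Cont mice 9 of 10 macrophage markers were called lower in males (median -1.08), as were 5 of 6 stellate and fibroblast (-0.67), 3 of 4 T and NK cell (-0.88) and 3 of 6 endothelial markers (-0.36). Among Pxr-/- Cont mice these counts were 4 (-0.64), 0 (-0.41), 2 (-0.67) and 2 (-0.34), and among Pxr+/+ ATB mice they were 5 (-0.75), 0 (-0.31), 3 (-0.80) and 2 (-0.27). Among Pxr-/- ATB mice no macrophage marker was called (-0.12), while 3 stellate and fibroblast (-0.53), 3 T and NK cell (-0.68) and 1 endothelial marker (-0.28) were lower in males. The counts of 0 and the 1 of 6 endothelial markers among Pxr-/- ATB mice lay below the array's share. The other counts of these 4 lists lay above it. None of these 4 lists had a marker called higher in males, and of 8 hepatocyte markers at most 1 was called in a comparison. Of 5 cholangiocyte markers 0 were called among Cont mice of either genotype. Among ATB mice of either genotype 1 of them was called lower in males. Of 2 enterocyte markers tested, 1 was called higher and 1 lower in males among Pxr+/+ Cont mice, and 0 in the other comparisons. The mean signal of the 10 macrophage markers was 9.81 to 10.26 in male and 10.76 to 11.72 in female Pxr+/+ Cont mice, and 8.94 to 11.55 in male and 9.52 to 10.57 in female Pxr-/- ATB mice. The part of these cell types in the Npc2 values was not tested.

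Mouse by mouse, most enzymes varied together within the groups. The signal of each member, less its group mean and wash batch, was set against that of Hmgcs1 over the 47 mice, which gave 26 relations with p-values from 100000 permutations within groups, adjusted over the 26. Cyp51 followed Hmgcs1 most closely (Pearson r = 0.96, Spearman rho = 0.95), then Mvk and Idi1 (r = 0.93 and rho = 0.92 each), Fdft1 (0.92 and 0.91) and Sqle (0.91 and 0.92). For each of these the permutation p was 1e-05, the smallest that the permutations can give, and the adjusted p was 2e-05. Without the 2 mice farthest from the median of Hmgcs1, r was 0.94 for Cyp51 and 0.92 for Mvk and for Idi1. The points share their arrays and the normalisation.

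Not all members followed. Srebf2 gave r = 0.73 (rho = 0.58), Insig1 and Stard4 gave r = 0.56 each, and Scap gave r = 0.43. Tm7sf2, which had the lowest adjusted p in the comparison of ATB with Cont in Pxr+/+ males, followed Hmgcs1 only loosely (r = 0.41, rho = 0.38), and Ebp gave r = 0.26 (permutation p = 0.09). Insig2, Npc2, Soat2 and Mylip lay between 0.01 and 0.06. Ggps1 gave r = -0.16 (p = 0.4) and Npc1 gave r = -0.32 (rho = -0.37, adjusted permutation p = 0.083 for r and 0.03 for rho).

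**Figure D5:**
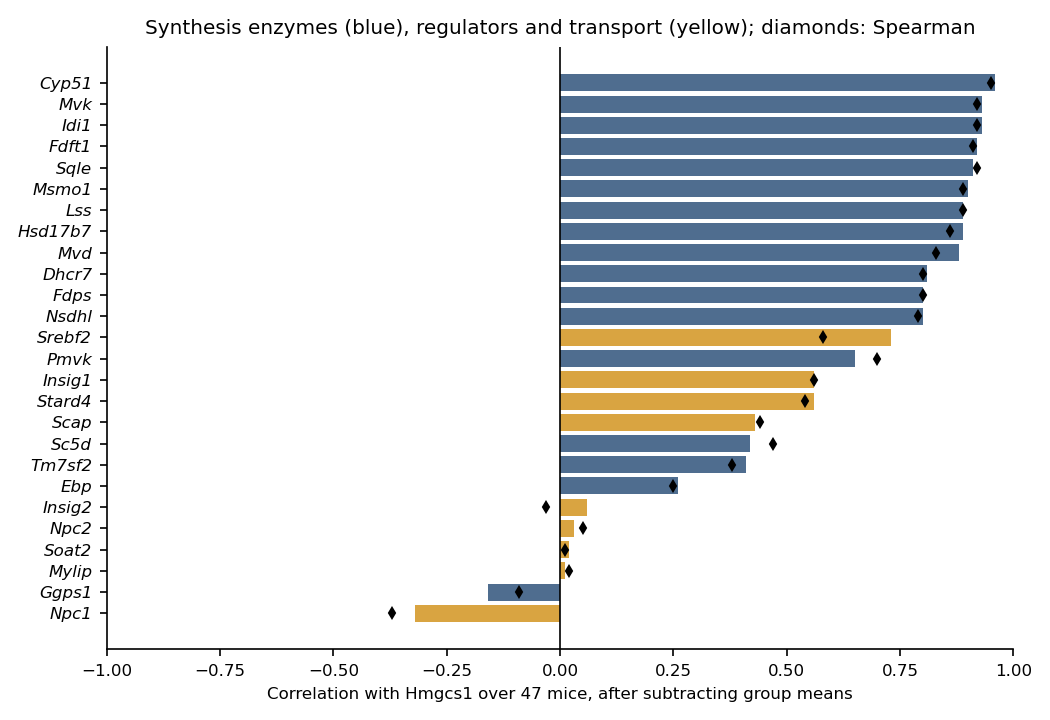
Correlation of each of 26 members with Hmgcs1 over 47 mice, after subtraction of group means and wash batch; bars are Pearson r, diamonds are Spearman rho, blue bars are synthesis enzymes and yellow bars are regulators and transport genes. Values run from 0.96 for Cyp51 to -0.32 for Npc1, and the enzymes Ggps1 (-0.16), Ebp (0.26), Tm7sf2 (0.41) and Sc5d (0.42) are the lowest of the enzymes.

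The spread of the enzymes between mice also differed by group. The enzyme mean had an SD of 0.10 in male Pxr+/+ ATB mice and between 0.21 and 0.44 in the other 7 groups, and for Idi1 the SD was 0.08 there against 0.30 to 0.71 elsewhere. Single mice outside that group reached its levels: the highest enzyme mean was 13.81 in Pxr-/- ATB males, 13.76 in Pxr+/+ Cont females and 13.91 in Pxr-/- ATB females. No test of the spread was made.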

How the data were processed

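Liver RNA of 47 mice was hybridised to 1-colour Agilent arrays, 1 array per mouse. The deposited scanner files hold spot intensity values extracted by the authors with Agilent Feature Extraction 10.10.1.1 (the submitters' processing notes also name limma), and the authors' deposited value table holds normalised log2 values. That table was used as an alternative. Its probe filter is not given in the sources used here, and its centring is known only from column medians of 7.36 to 7.53.

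Median spot signals were taken to log2, the wash batch effect was removed, and arrays were normalised by CrossNorm (300 random stacks of 1 array per group, quantile-normalised together and averaged), after the study's methods. Control spots and 422 non-uniform spot values were left out. Probes were kept where 5 or more arrays of some group showed them well above background, which left 32974 of 56605 gene probes. A gene was represented by its probe of highest mean median signal. One linear model with the 8 groups and the wash batch (limma 3.58.1, R 4.3.3) gave 12 comparisons and 4 differences of effects, with Benjamini-Hochberg adjustment over all probes tested. A call required an adjusted p of at most 0.05 and a fold change above 1.2. The number of arrays limits the precision. The script was tested on simulated data.

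All members are described by role, with values by mouse for those called with ATB in Pxr+/+ males and for the 3 largest differences of each other pair of groups. The members and lists were chosen with earlier results of these data known. Alternatives covered background correction, normalization, the filter, wash batch, slide, replicate number, the groups fitted, the choice of probe, and leaving out each mouse.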

Additional observations from a re-analysis of the deposited data

Results flagged for a closer look

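Of 216 combinations of member and group, 7 held a mouse whose gap to the nearest other mouse exceeded Dixon's critical value, and chance flags about 1 in 20 groups. The Pxr+/+ ATB female of replicate 3 stood above its group in 3 enzymes: Hmgcs1 was 16.26 on the log2 scale (others 15.20 to 15.59), Lss was 12.06 (others 11.38 to 11.59) and Msmo1 was 14.73 (others 13.73 to 14.10). In the same group the mouse of replicate 5 had a low Pmvk of 13.79, with the others at 14.17 to 14.35. Ggps1 was 9.54 in the Pxr-/- Cont male of replicate 6 (others 10.05 to 10.21). Soat2 was 11.69 in the Pxr+/+ Cont male of replicate 6 (others 12.12 to 12.22). Npc1 was 13.06 in the Pxr-/- ATB male of replicate 6 (others 12.43 to 12.66).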

How the results depend on the processing

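The 8 members called with ATB in Pxr+/+ males became 4 with quantile normalization, 4 with the processed signal less its 75th percentile, 4 with normexp background correction, 5 without the filter on dim probes, 5 without the wash batch and 14 with only the groups compared in the fit. Mvk, Idi1, Tm7sf2 and Stard4 were called under each of these. With the authors' values 6 members were called, and Fdft1 and Sqle were not among them. Over 11 alternative fits, those within each wash batch included, Fdft1 and Sqle lost their call in 9 each. Nsdhl lost its call in 8 of them and Msmo1 in 5. Among all genes, 191 of 226 calls were higher, against 82 of 251 with quantile normalization. The replicate numbers did not pair the mice (69 pairs, r from -0.34 to 0.55), and a fit with the replicate block called 5 members in this comparison.

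The 5 members called between the sexes in Pxr+/+ Cont mice became 3 with quantile normalization, 2 with the processed signal and 3 with normexp, and in each of these and in the 4 with the authors' values Insig2 was called higher in males. Ebp turned from -0.26 to 0.02 with the processed signal. The 4 in Pxr-/- Cont mice became 0 with quantile normalization, the processed signal, normexp, the authors' values and only the groups compared, and 2 without the filter or without the wash batch. The 4 in Pxr-/- ATB mice became 2 with quantile normalization, the processed signal, normexp and the authors' values: Soat2 and Npc2, both lower, except that with the processed signal they were Npc2, lower, and Fdps, higher (0.63). The 8 in Pxr+/+ ATB mice became 16 with only the groups compared. Among all genes in Pxr+/+ Cont mice, 473 of 6984 calls were higher in males, against 1523 of 3343 with quantile normalization. The cause of these changes was not tested.

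Leaving out 1 mouse gave 3 to 12 calls for ATB in Pxr+/+ males. For the sexes it gave 4 to 9 in Pxr+/+ Cont, 0 to 4 in Pxr-/- Cont, 3 to 12 in Pxr+/+ ATB and 2 to 4 in Pxr-/- ATB mice. For the genotypes it gave 0 to 2 in ATB males and in Cont females, and for the ATB effect of Pxr+/+ males minus females 0 to 1.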
